A study of Capra hircus with 6 samples.

Results

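The genes of mitochondrial and peroxisomal fatty acid oxidation were examined in cultured goat mesenchymal stem cells from fat, which can be driven to become adipocytes. They were taken from a list of 33 symbols, set by pathway with no cutoff on values but with earlier results of these data known, and 31 of them were rows of both deposited tables, among 16285 genes in all. Of these, 23 act mainly in mitochondria and 8 (ABCD3, ACAA1, ACOX2, ACOX3, DECR2, EHHADH, HACL1 and HSD17B4) in peroxisomes. ACADM and ACAD10 were not analysed here. In all, 3 libraries came from cells whose genotype label reads overexpressing YAP, and 3 from control cells labelled WT. Both groups carried the treatment label adipogenic differentiation, with no time point, no promoter or vector for the transgene and no word on whether replicates were separate cultures. The titles and genotype labels name YAP, while the design text of the series names a line overexpressing TAZ.

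The carnitine shuttle carries long-chain fatty acids into mitochondria: CPT1 enzymes load them on carnitine at the outer membrane, SLC25A20 exchanges the acylcarnitine across the inner membrane, and CPT2 hands the chain back to coenzyme A. In the matrix the chain is shortened by repeated rounds of dehydrogenation, hydration, a second dehydrogenation and thiolysis, and the electrons of the first step pass through ETFA, ETFB and ETFDH to ubiquinone. Peroxisomes run a similar spiral with acyl-CoA oxidases for very long, branched and bile acid side chains, and hand the shortened products on. White adipocytes mostly store fatty acids, whereas brown adipocytes oxidise them for heat.

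The libraries held 32593380 to 37131015 counted fragments in the YAP group and 33871397 to 34967990 in controls, as recovered from the steps of the FPKM values (fragments per kilobase of transcript, scaled to the library total). YAP1 itself stood at 28.4, 25.6 and 28.2 FPKM in the libraries labelled YAP and at 25.8, 27.0 and 28.9 FPKM in controls, a log2 change of 0.01 (SE 0.08, limma adjusted p = 0.95). WWTR1, which encodes TAZ, fell to 21.9, 19.2 and 23.1 FPKM in the libraries labelled YAP, against 30.2, 29.9 and 35.9 FPKM in controls (log2 change -0.56, SE 0.10, limma adjusted p = 0.0013), without overlap. Neither transcript was therefore higher in the libraries with the overexpression label, and the group is called the libraries labelled YAP, every direction being that of the label. The groups were deposited in separate tables, so table and group cannot be told apart, although FPKM is scaled within each library. Stromal markers were abundant in every library, with a summed level of 20900 to 21400 FPKM over 8 genes in the libraries labelled YAP and 19400 to 20600 in controls. The stromal genes did not move together, with 4 higher and 2 lower past the test, among them PDGFRB (log2 change 0.83), COL1A1 (0.68), ENG (-0.88) and NT5E (-0.42). Of 5 leukocyte markers, CD68 fell (log2 change -0.87, limma adjusted p = 8.3e-05), AIF1 had 0 reads and PTPRC at most 1. Adipocyte markers ranged widely: PPARG had 2 to 4 reads per library, LPL 0 to 4, LEP 0 to 1, ADIPOQ 2 to 17 and PLIN1 12 to 27, against 130 to 173 for CEBPA, 98 to 256 for LIPE and 537 to 1074 for CIDEC. The 8 adipocyte markers summed to 12.7 to 14.9 FPKM in the libraries labelled YAP and 20.0 to 22.5 in controls, with 1 higher (LIPE) and 1 lower past the test. The lower one, CIDEC, a lipid droplet protein, made up most of the sum, at 8.87 to 10.5 FPKM in the libraries labelled YAP and 16.8 to 19.3 FPKM in controls. The part of these markers in the results that follow was not tested. In bulk RNA, fewer cells of a type and less RNA per cell cannot be told apart.

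Transcripts for moving long chains into mitochondria and for the trifunctional protein that shortens them were lower in the libraries labelled YAP, and most peroxisomal genes did not pass the test. Genes were tested with limma on log2(FPKM + 1), YAP minus control, when they reached 1 FPKM in at least 3 libraries, with Benjamini-Hochberg adjustment over 10761 genes and a threshold of 0.05. On this scale the change of a low gene comes out too small. Of the 31 genes, 28 could be tested, and 1 rose and 11 fell. Among all tested genes, 35.9% passed in either direction, 12.9% higher and 23.0% lower, so the 3.6% higher and 39.3% lower of the tested oxidation genes have to be read against these shares. The 21 tested mitochondrial genes gave 1 rise and 10 falls (47.6% lower) with a median log2 change of -0.22. The 7 tested peroxisomal genes gave 0 rises and 1 fall (14.3% lower) with a median of -0.03, and the median of all tested genes was -0.10. The difference between the organelles was not tested. Group values did not overlap in 13 of the 21 mitochondrial and 1 of the 7 peroxisomal genes, against 48.3% of all tested genes.

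**Figure D1:**
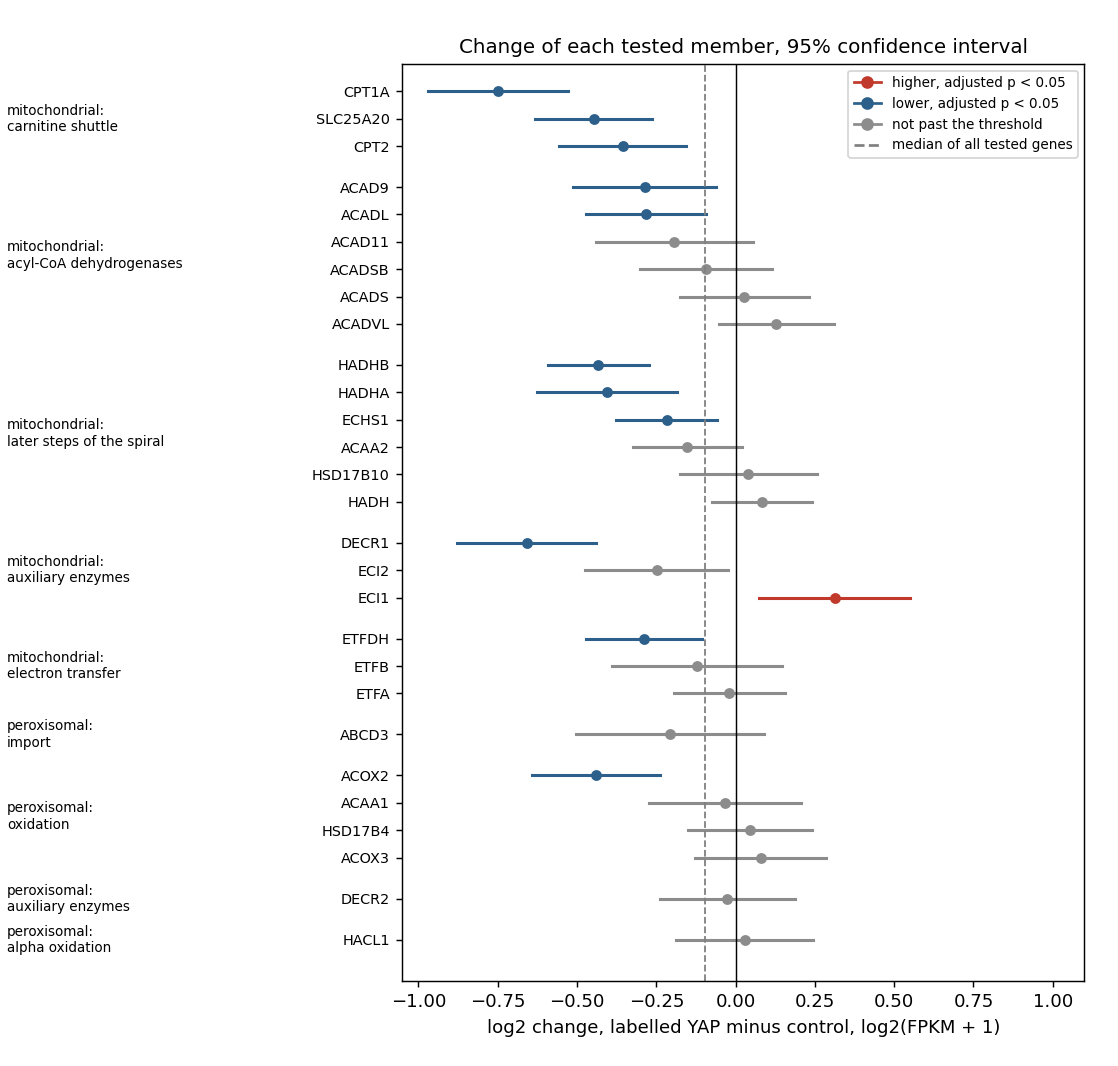
Log2 change on the log2(FPKM + 1) scale, libraries labelled YAP minus control (n = 3 each), for the 28 tested genes, grouped by organelle and role, with points for the estimate and bars for the 95% confidence interval of the limma fit. The dashed line is the median of all tested genes (-0.10). The 3 carnitine shuttle genes, HADHA, HADHB, DECR1 and ACOX2 lie left of it with their whole interval, as does ETFDH, while ECI1 lies right of 0.

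The scaling of the libraries bears on all of these counts. After median-of-ratios scaling the median of all tested genes was -0.02, 45.6% of all calls were lower and 54.4% higher, against 64.0% lower in the deposited FPKM. Of the mitochondrial genes, 6 were then still called lower (CPT1A, CPT2, SLC25A20, HADHA, HADHB and DECR1), while 13.5% of all tested genes were lower. ACADL, ACAD9, ECHS1 and ETFDH were not called, while the peroxisomal ACOX2 was. Without YAP replicate 1 the mitochondrial falls numbered 5, against 12.9% lower among all tested genes, and without control replicate 2 they numbered 6 of 21, against 20.2%.

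The 3 tested genes of the carnitine shuttle all fell. CPT1A, whose product commits long chains to oxidation and is inhibited by malonyl-CoA, had 21.9, 20.0 and 22.7 FPKM in the libraries labelled YAP, against 41.8, 32.1 and 37.0 FPKM in controls. Every library labelled YAP lay well below every control, and the level was 58.1% of the control mean. The log2 change was -0.75 (SE 0.10, limma adjusted p = 2.0e-04, lower in 3 of 3 libraries), and 2.0% of all tested genes had a more negative change. SLC25A20, the carnitine-acylcarnitine translocase, had 11.4, 11.3 and 10.2 FPKM in the libraries labelled YAP, against 16.1, 15.4 and 14.5 FPKM in controls (log2 change -0.45, SE 0.08, limma adjusted p = 0.0019). CPT2 had 11.1, 12.2 and 13.0 FPKM in the libraries labelled YAP, against 14.4, 16.1 and 16.6 FPKM in controls (log2 change -0.36, SE 0.09, limma adjusted p = 0.011). Neither SLC25A20 nor CPT2 overlapped between the groups. The CPT2 call was lost without YAP replicate 1 (limma adjusted p = 0.076). The ratio of CPT1A to CPT2 FPKM was 1.98, 1.63 and 1.75 in the libraries labelled YAP and 2.90, 1.99 and 2.23 in controls. The ranges nearly met, and this ratio was not among those planned.

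CPT1B, the muscle form of the first enzyme, was at the edge of detection, with 4 to 11 reads per library and 0.032 to 0.095 FPKM, and was not tested. Of 4 skeletal muscle markers in the same libraries, CKM had 0 to 5 reads, ACTA1 0 to 4, TNNT3 8 to 33 and DES 31 to 71, and none was tested. The FPKM of CPT1A was 308 to 698 times that of CPT1B in the libraries labelled YAP and 400 to 607 times in controls. CPT1C, a further form, had 1.43, 1.54 and 1.61 FPKM in the libraries labelled YAP and 1.68, 2.06 and 1.72 FPKM in controls (limma adjusted p = 0.21). It thus lay between CPT1B and CPT1A. By FPKM, CPT1A was the main form of the first shuttle enzyme in both groups.

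**Figure D2:**
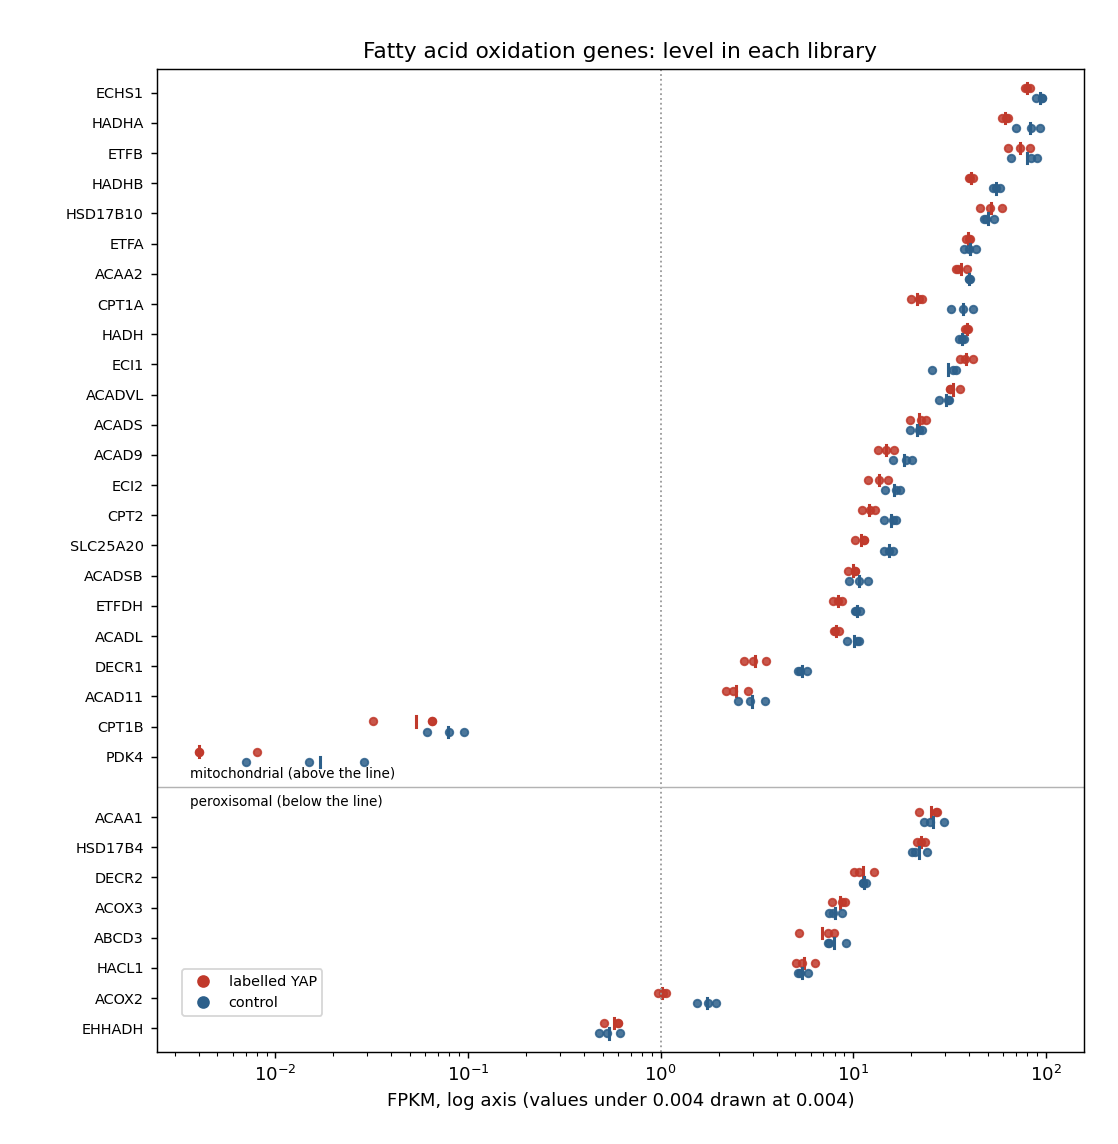
FPKM of the 31 genes in every library on a log axis, with the libraries labelled YAP above the controls for each gene, points for libraries, short vertical lines for group means and a dotted line at 1 FPKM. ECHS1, HADHA and ETFB are the most abundant, CPT1B and PDK4 lie near the detection floor, and CPT1A, DECR1 and ACOX2 show wide gaps between the groups.

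The acyl-CoA dehydrogenases, which take the first step of each round and differ in the chain length they accept, gave 2 falls among 6 tested genes, against 23.0% of all tested genes. ACADL, for long chains, had 8.07, 7.92 and 8.43 FPKM in the libraries labelled YAP, against 9.30, 10.7 and 10.4 FPKM in controls (log2 change -0.28, SE 0.09, limma adjusted p = 0.025). ACAD9, known chiefly as an assembly factor of respiratory complex I, had 14.8, 16.3 and 13.4 FPKM in the libraries labelled YAP, against 18.7, 20.2 and 16.1 FPKM in controls (log2 change -0.29, limma adjusted p = 0.049). The ACAD9 groups overlapped, since YAP replicate 2 lay above control replicate 3. The ACADL call held in 10 of the 15 fits and the ACAD9 call in 5. ACADVL, the very long chain dehydrogenase of the inner membrane, did not follow: it had 31.8, 35.6 and 31.8 FPKM in the libraries labelled YAP and 31.0, 31.5 and 28.0 FPKM in controls. Its log2 change was 0.13 (95% confidence interval -0.05 to 0.31, limma adjusted p = 0.25), with no overlap and every library labelled YAP above every control. ACADS, for short chains, averaged 21.9 ± 2.07 FPKM in the libraries labelled YAP and 21.5 ± 1.53 FPKM in controls (SD, n = 3 each). ACADSB, which acts on branched short chains from isoleucine, averaged 9.91 ± 0.49 FPKM in the libraries labelled YAP and 10.7 ± 1.17 FPKM in controls. ACAD11, a long-chain enzyme reported in human cells at peroxisomes as well and counted here as mitochondrial, averaged 2.47 ± 0.35 FPKM in the libraries labelled YAP and 2.97 ± 0.47 FPKM in controls (limma adjusted p = 0.20).

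In the later steps of the spiral the trifunctional protein, a membrane complex that performs the last 3 reactions on long chains, carried the largest falls. HADHA, its alpha subunit with hydratase and dehydrogenase activity, had 63.5, 59.1 and 62.4 FPKM in the libraries labelled YAP, against 93.4, 70.2 and 83.8 FPKM in controls (log2 change -0.41, SE 0.10, limma adjusted p = 0.0090). HADHB, the beta subunit with thiolase activity, had 39.9, 40.4 and 41.7 FPKM in the libraries labelled YAP, against 57.5, 52.9 and 55.4 FPKM in controls (log2 change -0.43, SE 0.07, limma adjusted p = 9.4e-04). The subunit levels stood at 74.8% and 73.6% of their control means, and neither overlapped between groups. The ratio of HADHA to HADHB overlapped, at 1.59, 1.46 and 1.497 in the libraries labelled YAP and 1.63, 1.33 and 1.51 in controls.

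The matrix enzymes for medium and short chains changed less. ECHS1, the enoyl-CoA hydratase crotonase, was the most abundant transcript of the 31 by mean FPKM in both groups. It fell to 79.8, 82.2 and 77.9 FPKM in the libraries labelled YAP, against 95.7, 95.3 and 88.5 FPKM in controls (log2 change -0.22, limma adjusted p = 0.037). That call held in 7 of the 15 fits. HADH, the 3-hydroxyacyl-CoA dehydrogenase for shorter chains, averaged 38.8 ± 0.65 FPKM in the libraries labelled YAP and 36.6 ± 1.13 FPKM in controls (95% confidence interval of the log2 change -0.07 to 0.24). HSD17B10, which also serves isoleucine breakdown and mitochondrial RNA processing, averaged 51.9 ± 6.74 FPKM in the libraries labelled YAP and 50.2 ± 3.31 FPKM in controls. The thiolase gene ACAA2 averaged 36.04 ± 2.61 FPKM in the libraries labelled YAP and 40.1 ± 0.44 FPKM in controls (limma adjusted p = 0.15, without overlap). None of HADH, HSD17B10 and ACAA2 passed the test.

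The auxiliary enzymes, which prepare unsaturated chains for the spiral, moved apart. DECR1, the mitochondrial 2,4-dienoyl-CoA reductase, had 2.70, 3.53 and 3.00 FPKM in the libraries labelled YAP, against 5.18, 5.78 and 5.32 FPKM in controls. The groups were clearly separate and the level was 56.8% of the control mean, on 164 to 321 reads per library. The log2 change was -0.66 (SE 0.10, limma adjusted p = 4.6e-04). ECI1, an enoyl-CoA isomerase that shifts double bonds, had 37.9, 41.8 and 35.6 FPKM in the libraries labelled YAP, against 34.1, 32.8 and 25.8 FPKM in controls. This was the single rise among the tested genes (log2 change 0.31, SE 0.11, limma adjusted p = 0.043), without overlap. The call was lost without control replicate 3, the lowest library (log2 change 0.19, limma adjusted p = 0.12), without YAP replicate 1 (0.32, limma adjusted p = 0.10) and without YAP replicate 2 (0.25, limma adjusted p = 0.11), and held in 9 of the 15 fits. ECI2, a related isomerase found in mitochondria and peroxisomes, had 13.6, 15.2 and 11.9 FPKM in the libraries labelled YAP and 17.4, 16.6 and 14.7 FPKM in controls (log2 change -0.25, limma adjusted p = 0.082, with overlap). The ratio of ECI1 to ECI2 was 2.79, 2.75 and 3.00 in the libraries labelled YAP and 1.96, 1.97 and 1.76 in controls. The pair was set against each other after its values were seen.

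Electrons from the acyl-CoA dehydrogenases pass to the flavoprotein of ETFA and ETFB and then to the membrane enzyme ETFDH. ETFDH had 7.88, 8.79 and 8.37 FPKM in the libraries labelled YAP, against 10.3, 10.8 and 10.2 FPKM in controls (log2 change -0.29, SE 0.08, limma adjusted p = 0.019), without overlap. ETFA had 39.99, 40.2 and 38.5 FPKM in the libraries labelled YAP and 37.4, 39.9 and 43.3 FPKM in controls (95% confidence interval of the log2 change -0.19 to 0.15). ETFB had 73.6, 82.6 and 63.8 FPKM in the libraries labelled YAP and 84.1, 89.98 and 66.2 FPKM in controls (95% confidence interval -0.39 to 0.15). The flavoprotein subunits therefore overlapped between the groups, and ETFDH did not. The ratio of ETFB to ETFDH, which was not planned, overlapped as well. It was 9.344, 9.399 and 7.621 in the libraries labelled YAP and 8.179, 8.319 and 6.515 in controls. In ETFB, replicate 3 was the lowest library of both groups and replicate 2 the highest.

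PDK4 encodes a kinase that switches off pyruvate dehydrogenase and is a familiar fasting and PPAR-responsive gene in other mammals. It had 0, 1 and 0 reads in the libraries labelled YAP and 1, 2 and 4 reads in controls, near or under the floor of 3 reads, and was not tested. No fold is given for it.

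Peroxisomal genes were quieter, with ACOX2 as the exception. ACOX2, an oxidase for branched chains and bile acid intermediates, had 1.03, 1.06 and 0.97 FPKM in the libraries labelled YAP, against 1.94, 1.76 and 1.54 FPKM in controls. The groups were separate on 110 to 215 reads per library, at 58.5% of the control mean (log2 change -0.44, SE 0.09, limma adjusted p = 0.0036). The pseudocount weighs on a gene near 1 FPKM, so the ratio of means is the fuller measure of its change. ACOX3, the other branched-chain oxidase, averaged 8.52 ± 0.69 FPKM in the libraries labelled YAP and 8.02 ± 0.65 FPKM in controls (95% confidence interval of the log2 change -0.13 to 0.29). The bifunctional enzymes that follow the oxidases overlapped between the groups. HSD17B4, the D-bifunctional protein, averaged 22.5 ± 1.146 FPKM in the libraries labelled YAP and 21.8 ± 2.16 FPKM in controls (95% confidence interval -0.15 to 0.24). EHHADH, the L-bifunctional protein, had 0.60, 0.51 and 0.60 FPKM in the libraries labelled YAP and 0.53, 0.48 and 0.62 FPKM in controls, on 64 to 88 reads. It was below the filter and not tested.

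The other peroxisomal genes overlapped between the groups. ACAA1, the peroxisomal thiolase, averaged 25.4 ± 2.92 FPKM in the libraries labelled YAP and 26.0 ± 3.30 FPKM in controls. DECR2, the peroxisomal dienoyl-CoA reductase, averaged 11.2 ± 1.44 FPKM in the libraries labelled YAP and 11.4 ± 0.27 FPKM in controls (95% confidence interval of the log2 change -0.24 to 0.19). Its mitochondrial relative DECR1 fell. The ratio of DECR1 to DECR2 was 0.25, 0.28 and 0.30 in the libraries labelled YAP and 0.46, 0.49 and 0.47 in controls. That ratio was not among those planned. A further unplanned ratio, of ACAA1 to the mitochondrial ACAA2, overlapped between the groups. It was 0.79, 0.70 and 0.63 in the libraries labelled YAP and 0.63, 0.73 and 0.59 in controls. HACL1, a lyase of the alpha oxidation of phytanic acid, averaged 5.58 ± 0.65 FPKM in the libraries labelled YAP and 5.43 ± 0.32 FPKM in controls. ABCD3, which imports acyl-CoA through the peroxisomal membrane, had 7.38, 5.24 and 7.93 FPKM in the libraries labelled YAP and 7.46, 7.35 and 9.15 FPKM in controls (95% confidence interval -0.50 to 0.09). YAP replicate 2 was its lowest library, and its interval is the widest of the 28 genes.

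Summed over the 23 mitochondrial genes, the level was 616, 649 and 596 FPKM in the libraries labelled YAP and 727, 707 and 675 FPKM in controls. The groups did not overlap, and the means differed by -82.6 FPKM. The largest parts of that difference came from HADHA (-20.8 FPKM), CPT1A (-15.5), HADHB (-14.6) and ECHS1 (-13.2), and the largest part against it from ECI1 (7.52). The 8 peroxisomal genes summed to 82.8, 82.4 and 79.8 FPKM in the libraries labelled YAP and 80.3, 84.6 and 83.8 FPKM in controls, with overlap. These sums are descriptions without a test, taken on the deposited FPKM and not repeated after median-of-ratios scaling. That scaling moved the median log2 change of the tested mitochondrial genes from -0.22 to -0.13.

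**Figure D3:**
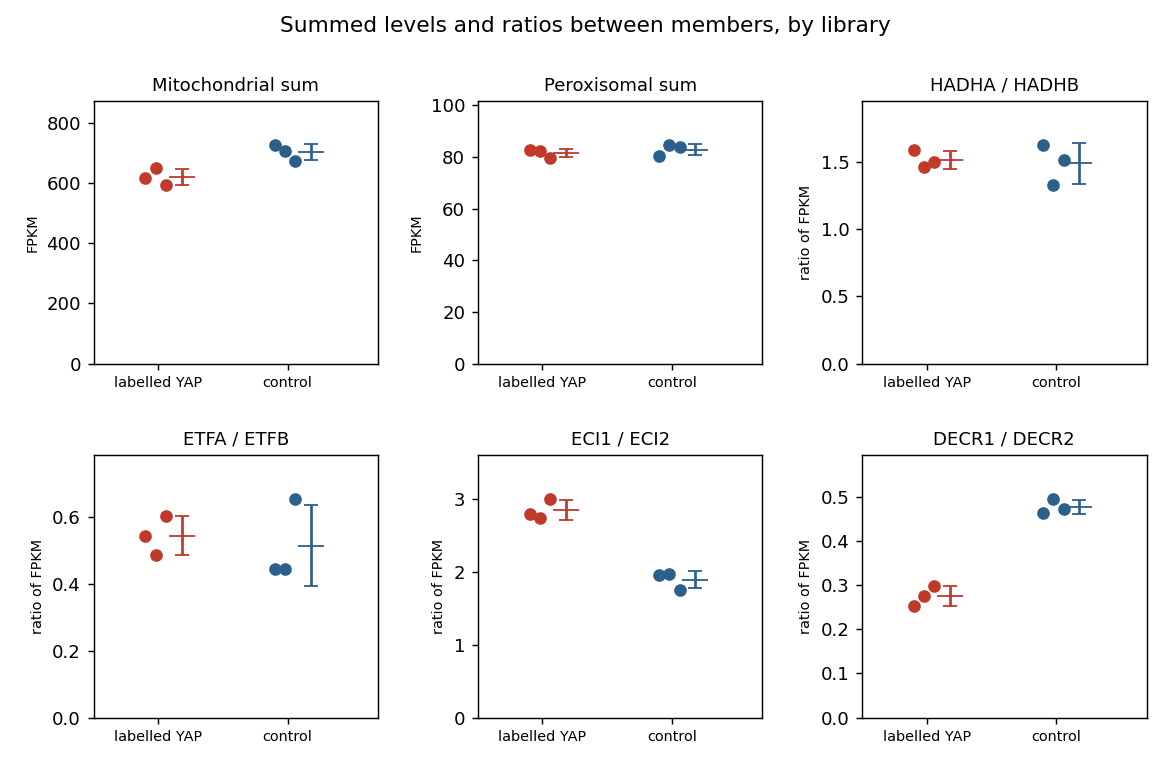
Summed FPKM, as deposited, of the 23 mitochondrial and 8 peroxisomal genes and 4 ratios of FPKM between genes. Points mark libraries and bars mean ± SD (n = 3 per group), with the libraries labelled YAP on the left of each panel. The mitochondrial sum and the ratios of ECI1 to ECI2 and DECR1 to DECR2 do not overlap between groups, and both ratios were unplanned. The peroxisomal sum and the subunit ratios overlap.

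Genes around the pathway were taken from 6 further lists. Their counts have to be read against the 12.9% higher and 23.0% lower of all tested genes. After median-of-ratios scaling, 29.6% of all tested genes were called and 13.5% were lower. Among 19 regulators, 12 were tested, and 1 rose and 1 fell (8.3% each). SIRT1, a deacetylase that acts on the coactivator PGC-1alpha, fell to 3.25, 3.04 and 3.29 FPKM in the libraries labelled YAP, against 5.09, 4.07 and 5.48 FPKM in controls (log2 change -0.48, limma adjusted p = 0.0047). ACACA, an acetyl-CoA carboxylase that makes the CPT1 inhibitor malonyl-CoA, rose to 12.1, 10.9 and 12.5 FPKM in the libraries labelled YAP, against 8.96, 9.71 and 9.88 FPKM in controls (log2 change 0.29, limma adjusted p = 0.024). The kinase gene PRKAA1, an AMPK catalytic subunit, did not pass, at 4.19 ± 0.47 FPKM in the libraries labelled YAP and 5.17 ± 0.63 FPKM in controls (limma adjusted p = 0.090). PPARA had under 1 FPKM in most libraries and PPARGC1A 2 to 25 reads, and neither was tested.

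Of 15 tested genes of carnitine and acyl-CoA supply, 5 rose and 4 fell, against 7 and 2 after median-of-ratios scaling. As deposited, 33.3% were thus higher and 26.7% lower, against 12.9% and 23.0% of all tested genes. ACSL5, an acyl-CoA ligase, averaged 3.75 ± 0.92 FPKM in the libraries labelled YAP and 1.49 ± 0.06 FPKM in controls (log2 change 0.92, limma adjusted p = 2.3e-04). The ligase gene ACSL3 averaged 20.9 ± 2.12 FPKM in the libraries labelled YAP and 12.5 ± 3.00 FPKM in controls (log2 change 0.73, limma adjusted p = 0.0032). ACOT7, a cytosolic thioesterase that splits acyl-CoA, averaged 22.8 ± 1.88 FPKM in the libraries labelled YAP and 38.4 ± 5.48 FPKM in controls (log2 change -0.72, limma adjusted p = 3.5e-04). Ligases stood on both sides: ACSL4 also rose (log2 change 0.42, limma adjusted p = 0.011), while ACSF2 (-0.31, limma adjusted p = 0.020) and SLC27A4, a transporter with ligase activity (-0.46, limma adjusted p = 0.0084), fell. Both were picked out, like ACSL4, after their values were seen.

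Among 39 tested other peroxisomal genes, 3 rose and 11 fell, against 5 and 1 after median-of-ratios scaling. The share called in either direction, 35.9%, was that of all tested genes. AMACR, the racemase that readies branched chains for peroxisomal oxidation, averaged 14.5 ± 1.87 FPKM in the libraries labelled YAP and 6.11 ± 0.26 FPKM in controls (log2 change 1.12, limma adjusted p = 8.1e-06). CAT, catalase, which removes the peroxide made by the oxidases, averaged 26.0 ± 0.78 FPKM in the libraries labelled YAP and 35.1 ± 0.66 FPKM in controls (log2 change -0.42, limma adjusted p = 0.0012).

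In the list for control of pyruvate dehydrogenase, 3 of 12 tested genes rose and 3 fell, against 4 and 1 after median-of-ratios scaling, and 6 did not pass. Both subunit genes of the mitochondrial pyruvate carrier rose: MPC1 averaged 74.9 ± 7.15 FPKM in the libraries labelled YAP and 52.4 ± 7.36 FPKM in controls (log2 change 0.51, limma adjusted p = 0.0035). MPC2 averaged 39.98 ± 1.39 FPKM in the libraries labelled YAP and 29.0 ± 1.63 FPKM in controls (log2 change 0.45, limma adjusted p = 0.0010). DLD, the lipoamide dehydrogenase shared by several dehydrogenase complexes, averaged 8.70 ± 0.32 FPKM in the libraries labelled YAP and 11.9 ± 1.49 FPKM in controls (log2 change -0.40, limma adjusted p = 0.0083).

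In the list of ketone, branched-chain and propionate genes, 4 of 24 tested rose and 2 fell, against 6 and 1 after median-of-ratios scaling. As deposited, that was 16.7% higher and 8.3% lower, against 12.9% and 23.0% of all tested genes. ACAT2, a cytosolic acetoacetyl-CoA thiolase that also starts sterol synthesis, averaged 105 ± 4.67 FPKM in the libraries labelled YAP and 73.6 ± 12.5 FPKM in controls (log2 change 0.52, limma adjusted p = 0.0037). MCCC1, a carboxylase subunit of leucine breakdown, averaged 8.85 ± 0.45 FPKM in the libraries labelled YAP and 6.49 ± 0.31 FPKM in controls (log2 change 0.39, limma adjusted p = 0.0044). OXCT1, which activates ketone bodies for oxidation, averaged 13.6 ± 0.82 FPKM in the libraries labelled YAP and 18.4 ± 1.91 FPKM in controls (log2 change -0.41, limma adjusted p = 0.0062).

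Among known PPAR targets outside the 31 genes, 10 of 17 were in the tables and 5 were tested. Of these, 4 rose and 0 fell, while 12.9% of all tested genes were higher and 23.0% lower. Any PPAR targets among the 31 genes were left out of this list, so its count does not cover them. The untested genes of this list stood on both sides. The fatty acid translocase gene CD36 averaged 0.024 FPKM in the libraries labelled YAP and 0.282 FPKM in controls. SLC25A42 averaged 1.03 FPKM in the libraries labelled YAP and 0.62 FPKM in controls. Both were picked out after their values were seen. ANGPTL4, a secreted inhibitor of lipoprotein lipase, had 14.7, 15.9 and 13.8 FPKM in the libraries labelled YAP, against 4.96, 3.84 and 3.89 FPKM in controls (log2 change 1.60, SE 0.10, limma adjusted p = 6.0e-07). FABP3, a fatty acid binding protein, had 180, 209 and 180 FPKM in the libraries labelled YAP, against 29.6, 75.04 and 43.1 FPKM in controls (log2 change 2.02, SE 0.24, limma adjusted p = 8.5e-05). TXNIP, a thioredoxin-binding protein that restrains glucose uptake, had 21.3, 21.96 and 21.5 FPKM in the libraries labelled YAP, against 10.1, 11.7 and 14.4 FPKM in controls (log2 change 0.80, limma adjusted p = 2.5e-04). ANGPTL4, FABP3 and TXNIP were separate between the groups, as were 48.3% of all tested genes.

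**Figure D4:**
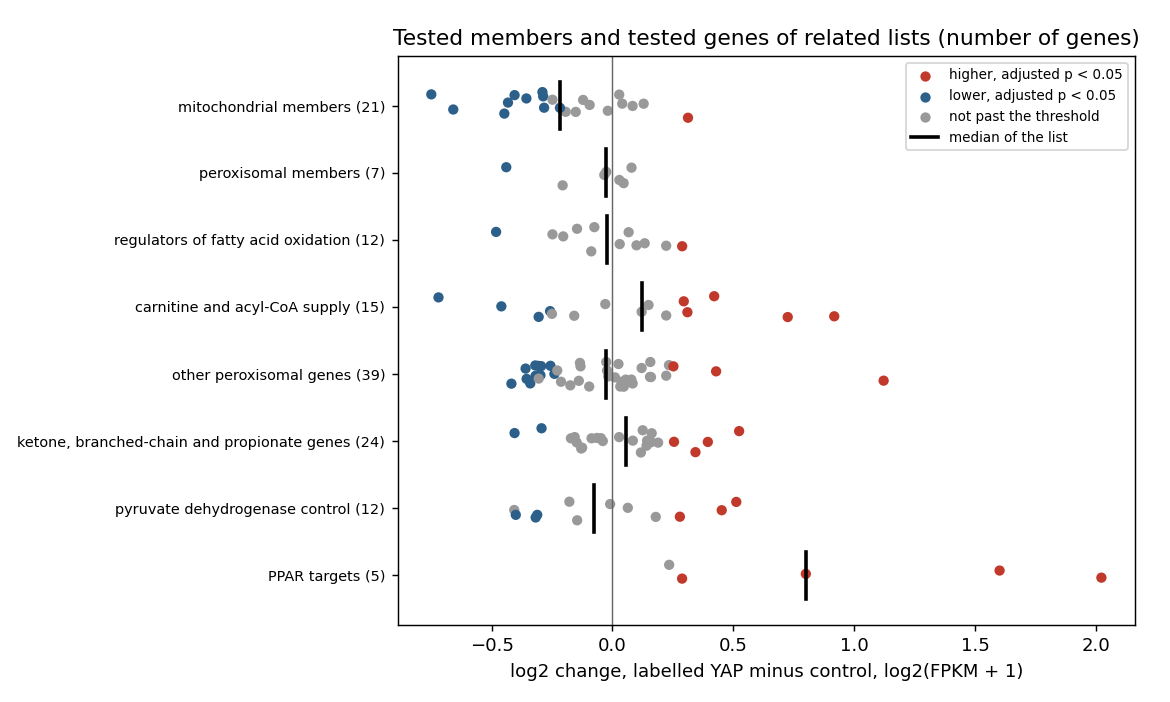
Log2 change on the log2(FPKM + 1) scale, libraries labelled YAP minus control, of each tested gene (points) and list median (bars) for the mitochondrial and peroxisomal genes and 6 related lists, with the number of tested genes in brackets and colour for calls at limma adjusted p 0.05. The mitochondrial median lies at -0.22 and the peroxisomal one at -0.03. That of the 5 tested PPAR targets, a list without these mitochondrial and peroxisomal genes, lies at 0.80.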

How the data were processed

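RNA was sequenced in 6 libraries, 3 per group, grouped by sample title. Per the labels' protocols, RNA was taken with TRIzol and libraries were built with a VAHTS kit. Tools named in the submitters' processing notes are fastp, HISAT2 and HTSeq. Build, annotation, strand setting and multi-mapping were not given in the sources used here. As deposited by the authors, values are FPKM, scaled library by library, in 1 table per group. Another 6 columns, headed TAZ and pcDNA, match no sample and were not used. Whether the controls, labelled WT, carried an empty vector such as pcDNA was not tested. Of 16285 identifiers, 16262 matched a symbol of RefSeq ARS1.2, and no coordinates are given because the build is not known.

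Whole reads were recovered from the steps of low FPKM values. All 15958 genes above 0 were whole within 0.05 reads (100% of values), with a largest deviation of 0.003 reads. For each gene the first length that gave whole reads within 0.003 was kept. That largest deviation is therefore the cutoff of the search and no measure of accuracy. For genes of few reads the smallest whole numbers were taken. Read floors cover counting error only. Replicates of a group differed by a chi-square of 7.92 to 31.9 per gene, so no library was a copy of another.

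Log2(FPKM + 1) of genes with at least 1 FPKM in 3 libraries was fitted with limma 3.58.1 in R 4.3.3 (eBayes with trend), two-sided, with Benjamini-Hochberg adjustment over 10761 genes. The fit was tested on simulated data with independent libraries and the same spread for every gene. That setting was simpler than these data, in which some same-numbered libraries deviated together. The p-values measure the spread between these libraries, which may be technical. Members, lists and tests were chosen with earlier results of these data known. Values per library are given for the shuttle, electron transfer, PDK4 and members past the threshold. From each related list up to 3 genes with the smallest adjusted p are given, by library or as mean ± SD. A result from the related lists is not reported here. Others are named as low or untested genes. Promoter and protein sequences were not used here. There were 14 alternatives to the deposited setting: a pseudocount of 0.1, no filter, a filter at 0.1 FPKM, 2 other scalings, the replicate block, no variance trend, limma-voom on recovered reads and leaving out each library.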

Additional observations from a re-analysis of the deposited data

How the results depend on the processing

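CPT1A, SLC25A20, HADHA, HADHB, DECR1 and ACOX2 were called lower in all 15 fits, the deposited setting included. Mitochondrial calls were 11 as deposited and 7 after median-of-ratios scaling (6 lower), and ran from 5 to 11 when a library was left out, with falls from 5 to 11 and rises from 0 to 1. The single mitochondrial rise, ECI1, gave 0 without a filter, without the variance trend and with limma-voom. Of all tested genes, 2411 to 3606 were called when a library was left out, with falls from 1387 to 2273, and falls numbered 2476 as deposited, 1453 after median-of-ratios scaling and 3745 with the replicate block. The replicate block gave 12 mitochondrial falls, with ACAD11 and ECI2 added (limma adjusted p = 0.046 and 0.011). Same-numbered libraries deviated together for numbers 2 and 3 (r = 0.59 and 0.60) but not for number 1 (r = -0.02). YAP replicate 1 correlated best with control replicate 3 (0.14). Deviations from a mean of 3 libraries are not independent, so these values cannot settle whether the numbers mark pairs. The main fit had no block because no pairing was stated, and the replicate block raised the calls among all tested genes from 3868 to 5573.

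Over all members and alternatives, 339 values kept direction and side of the threshold, 34 calls were lost, 4 gained and 15 small changes turned sign, none of them called. Median-of-ratios scaling turned ETFA to 0.070, ACAA1 to 0.055 and DECR2 to 0.059, and quantile normalization turned them to 0.057, 0.048 and 0.038. Leaving out a library moved ACADS between -0.029 and 0.102, HSD17B10 between -0.055 and 0.127, ETFA between -0.069 and 0.035, HSD17B4 between -0.003 and 0.123, ACAA1 between -0.106 and 0.062, DECR2 between -0.119 and 0.042 and HACL1 between -0.048 and 0.089. The cause of these shifts was not tested. A promoter motif count was not run. CPT1B and PDK4 had too few reads for a comparison.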

Other observations

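CD36, the fatty acid translocase of the cell surface, lay below the filter and was not tested. It had 0.030, 0.014 and 0.030 FPKM in the libraries labelled YAP and 0.461, 0.163 and 0.223 FPKM in controls, on 2 to 73 reads per library. PPARGC1A, which encodes PGC-1alpha, had 0.064, 0.122 and 0.060 FPKM in the libraries labelled YAP and 0.009, 0.028 and 0.018 FPKM in controls. PPARGC1A had 2 to 25 reads per library. Neither gene overlapped between the groups, nor did 48.3% of all tested genes. Both were picked out after their values were seen.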
